A study of Mus musculus with 12 samples.

Results

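Livers of mice that lack p38γ and p38δ in myeloid cells (KO, 4 pools) were set against livers of mice that received an antibody against Ly6G (anti-Ly6G, 4 pools), over all 11791 genes of the deposited table. These 8 pools were taken by their labels from the 12 pools of the series, and the 4 pools of Lyzs-Cre controls are given beside them. Every animal was a male of 10 weeks on the strain label C57BL/6, kept for 3 weeks on a diet without methionine and choline (MCD), and each pool mixed liver RNA of 2 animals. All 3 groups carried Lyzs-Cre, a Cre recombinase placed in the lysozyme 2 locus, which is active in monocytes, macrophages and neutrophils. The KO pools had the genotype Lyzs cre p38g/d, and the anti-Ly6G pools had the genotype Lyzs cre and received the antibody. Their titles read GR1 where their source names read Ly6G, and neither a clone nor a dose was given. The mitochondria label was NZB in all anti-Ly6G pools and in KO pools 3 and 4, and C57 in KO pools 1 and 2 and in the controls. NZB here stands for conplastic mice, whose mitochondrial DNA comes from another strain than their nuclear genome, as far as the growth protocol tells. The labels also mention 12 males per genotype, more than 4 pools of 2 would use.

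p38γ (gene Mapk12) and p38δ (gene Mapk13) are stress-activated kinases of the p38 family, which relay signals of inflammation and cell damage to transcription factors and to proteins that control the stability and translation of cytokine mRNAs. Neutrophils carry Ly6G on their surface, and antibodies against it are used to remove them from mice. An MCD diet deprives the liver of the choline it needs to export lipid in lipoproteins, so that steatosis, inflammation and fibrosis develop. In such a liver monocytes enter from blood and become lipid-associated macrophages beside the resident Kupffer cells, and stellate cells deposit collagen. The direct contrast of KO and anti-Ly6G asks where a change in the signalling of myeloid cells and an antibody against neutrophils leave the liver in different states.

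Levels below are the deposited normalised signal, close to RPM (reads scaled to library size) and not divided by gene length, so levels are compared between pools and never between genes. Differences are on the scale log2(signal + 0.5), as KO minus anti-Ly6G, and this scale understates the change of low genes. A gene was called higher or lower in KO where the limma-trend fit over all 12 pools gave a Benjamini-Hochberg adjusted p under 0.05 over all genes tested. If the pools hold separate animals, as the labels imply without saying so, these p-values measure the spread between pools of 2 animals. KO pools held 18.8 to 22.3 M reads each, and anti-Ly6G pools held 13.1 to 21.0 M. Log2 values of 2 pools had a Pearson correlation over genes of 0.982 to 0.991 within KO, 0.98 to 0.988 within anti-Ly6G and 0.952 to 0.963 between them. The first principal component of the 8 pools held 58.2% of their variance and separated the groups, with KO at 24.8 to 29.96 and anti-Ly6G at -29.6 to -24.4. The second held 13.7% and set KO pools 1 and 2 (11.3 and 14.9) apart from KO pools 3 and 4 (-11.7 and -14.2), that is, by the mitochondria label, and anti-Ly6G pools 2 and 4 (5.62 and 18.3) apart from pools 1 and 3 (-10.2 and -14.1), which share 1 label. Among defining liver genes, Alb (albumin) was measured at 82570, 92300, 71460 and 70390 in KO and 99600, 106000, 72010 and 107300 in anti-Ly6G pools, and all 17 hepatocyte markers of the list used below were measured.

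Of the 11791 genes, 1608 (13.6%) were higher and 1549 (13.1%) were lower in KO than in anti-Ly6G pools, 26.8% in all. The 4 KO and the 4 anti-Ly6G values did not overlap for 3223 genes (27.3%). The median difference over all genes was -0.01. KO pools 3 and 4 alone, which carry the same mitochondria label as the anti-Ly6G pools, gave 1246 genes higher (10.6%) and 1128 lower (9.57%). Adding the label to the fit as a term gave these same numbers, because KO pools 3 and 4 are then the pools that carry the contrast. Against the controls, 69 genes were higher (0.585%) and 63 lower (0.534%) in KO, while 1775 were higher (15.1%) and 1805 lower (15.3%) in anti-Ly6G. These comparisons share the 4 control pools, and the values of both are given side by side below.

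The gene groups with many members higher in KO included matrix genes, macrophage genes, chemokine and NF-kB genes and immediate early genes, and the group with the largest share of lower members was cholesterol synthesis. In the plot of members called per list, 31 of 36 measured collagen and matrix genes, 13 of 16 lipid-associated macrophage genes and 17 of 21 monocyte-derived macrophage genes were higher in KO, and 0 of each were lower. Of 25 cholesterol synthesis genes, 16 were lower and 0 higher. Of 17 hepatocyte markers 2 were lower in KO (0 without KO pool 3, KO pool 4 or anti-Ly6G pool 2, and 4 with KO pools 3 and 4 alone), and their summed signal overlapped, at 126728 to 160588 in KO and 136232 to 180445 in anti-Ly6G pools. The hepatocyte share of lower members was near the 13.1% of all genes. In bulk liver RNA, more cells of a type and more RNA per cell cannot be told apart.

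**Figure D1:**
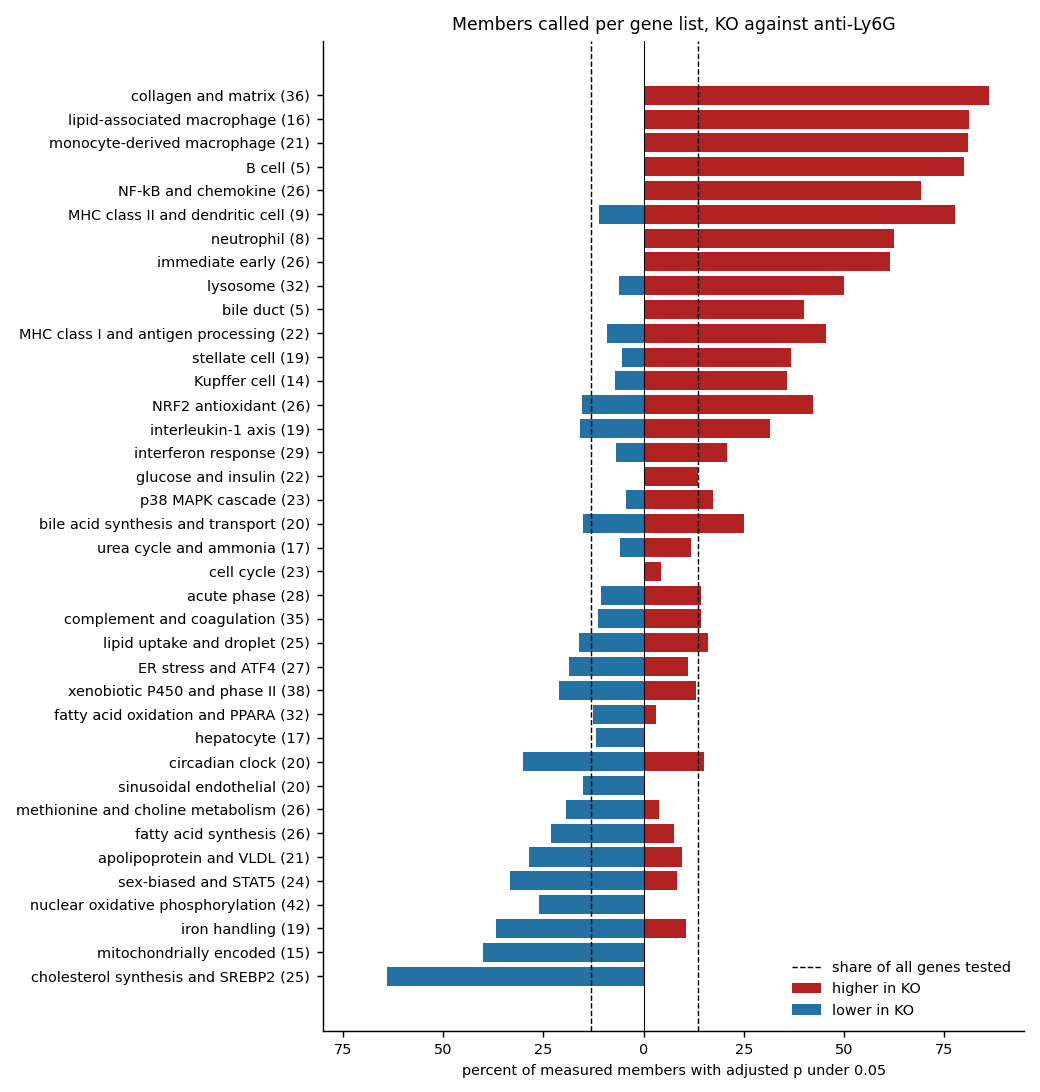
Percent of members with an adjusted p under 0.05 in each gene list with at least 5 measured members, to the right for members higher in KO and to the left for members lower in KO than in anti-Ly6G, with the number of measured members in parentheses. Dashed lines mark the shares over all genes tested (13.6% higher, 13.1% lower). The matrix list and the lists of lipid-associated and monocyte-derived macrophages extend furthest to the right among these, and cholesterol synthesis extends furthest to the left.

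The targeted genes were examined first. Mapk12 (p38γ) was at 1.63, 1.79, 2.7 and 3.06 in KO pools 1 to 4 and at 1.71, 1.57, 1.86 and 1.54 in anti-Ly6G pools 1 to 4, with a difference of 0.34 (SE 0.18, adjusted p = 0.192). It was not called lower in the KO livers, where the deletion is limited to Cre-expressing cells, and with KO pools 3 and 4 alone it was higher (0.64, adjusted p = 0.0265). A signal over the whole gene in whole liver does not check a deletion of some exons in some cells. Mapk13 and Ly6g are not analysed here. Of 23 measured genes of the p38 cascade, 18 were not called and 1 (Dusp16) was lower, a smaller share than the 13.1% of all genes. The median was 0.05, and 0 were lower without any 1 of KO pools 1, 2 and 3 and anti-Ly6G pools 1, 2 and 4. The other 4 were higher, a share near the 13.6% of all genes. The kinases that p38 activates to act on mRNA stability were among the higher ones, with Mapkapk3 at 4.91 ± 0.853 against 2.15 ± 0.436 (SD, n = 4 each; difference 1.03, adjusted p = 0.00129) and Mapkapk2 at 90.1 ± 2.66 against 76.1 ± 6.03 (difference 0.25, adjusted p = 0.0166). Mapkapk2 lost its call with KO pools 1 and 2 alone (adjusted p = 0.0912) and without anti-Ly6G pool 1 (adjusted p = 0.0506).

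Genes of lipid-associated macrophages were higher in KO in 13 of 16 cases. Gpnmb, a membrane glycoprotein of lipid-laden macrophages (ENSMUSG00000029816, chromosome 6, 49036546 to 49070929 in GRCm38), had a signal of 280.3, 289, 121 and 199.5 in KO pools and 22.1, 14.5, 43.3 and 12 in anti-Ly6G pools. Every KO pool was above every anti-Ly6G pool, and the controls, at 97.6 to 279.9, overlapped with KO and not with anti-Ly6G. Its difference of 3.35 (SE 0.39, adjusted p = 9.14e-05) was the largest of any higher gene with at least 90% unique sequence. Trem2, the lipid-sensing receptor that marks these macrophages, was at 27.9, 24.4, 16.6 and 21.4 in KO and 6.7, 6.59, 5.06 and 4.53 in anti-Ly6G pools (difference 1.89, adjusted p = 1.47e-05). The metalloelastase Mmp12 was at 158 ± 44.9 against 28.7 ± 10.9 (difference 2.49, adjusted p = 0.000331). Lipoprotein lipase, Lpl, was at 172 ± 35.4 against 38.5 ± 8.57 (difference 2.15, adjusted p = 3.85e-05). None of these 3 genes had overlapping groups. The tetraspanin Cd63, whose reads may be split with related sequence (82.4% unique), was also higher (1.69, adjusted p = 2.73e-05), as were the osteopontin gene Spp1 (1.19, adjusted p = 0.000507) and the metalloprotease gene Adam8 (2.44, adjusted p = 0.000195). In the lipid-associated list, Plin2, Apoe and Cd36 were not called, all 3 of which hepatocytes also express. The list's median was 1.54 over 16 measured members, against -0.01 over all genes, with 12 higher in KO pools 3 and 4 alone. Its median was 0.37 for KO minus control and -1.27 for anti-Ly6G minus control. The summed signal of the list overlapped, at 20358 to 24400 in KO and 20651 to 25744 in anti-Ly6G pools.

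Genes of monocytes and of macrophages that derive from them stood higher in KO by smaller amounts. Cd68, a lysosomal protein of all macrophages, was at 55, 51, 38.9 and 40.4 in KO and 17.6, 11, 15 and 14.5 in anti-Ly6G pools (difference 1.64, adjusted p = 0.000133). Laptm5, a lysosomal membrane protein of blood cells, was at 69 ± 2.8 against 25.4 ± 5.65 (difference 1.45, adjusted p = 4.7e-05), and Fcer1g, the signalling chain of Fc receptors, was at 34.2 ± 5.35 against 14.9 ± 2.4 (difference 1.17, adjusted p = 0.000207). The groups did not overlap for any of the 3. Lyz2 was at 234, 246, 143 and 163 in KO and 39.1, 60, 71.6 and 45.3 in anti-Ly6G pools (difference 1.85, adjusted p = 0.00525). Its level also depends on how many copies carry the Cre insertion, which the labels do not give, and 59.5% of its sequence is unique, so it is less certain than the other markers. Cx3cr1, a chemokine receptor of monocytes chosen after its values were seen, was at 8.3 ± 2.08 against 2.6 ± 1.3 (difference 1.58, adjusted p = 0.00156). Ccr2, the receptor that brings inflammatory monocytes out of the marrow, and Adgre1 (F4/80) were not called, with differences of 0.50 (adjusted p = 0.199) and 0.39 (adjusted p = 0.167). The monocyte list had a median of 0.88, a summed signal of 601.6 to 776 in KO, 257 to 346 in anti-Ly6G and 392 to 661 in control pools, and 12 of its 21 members higher in KO pools 3 and 4 alone.

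Markers of the resident macrophage, the Kupffer cell, were mixed. Of 14 measured, 5 were higher in KO, a larger share than the 13.6% of all genes. Another 1 was lower, a smaller share than the 13.1% of all genes, and 8 were not called. Their summed signal overlapped between KO (832 to 1037) and anti-Ly6G pools (614 to 928), as did that of the lipid-associated list. Clec4f, the lectin most specific to Kupffer cells, was at 72.5, 87.2, 118 and 109 in KO and 131, 82.7, 109 and 104 in anti-Ly6G pools, which overlap (difference -0.15, adjusted p = 0.521). Vsig4, a complement receptor, and Timd4, a receptor for dying cells, also overlapped, with differences of 0.02 and -0.34 (adjusted p = 0.946 and 0.183). The 5 higher members were Marco, Hmox1 and the complement genes C1qa, C1qb and C1qc, which other macrophages also express. Marco, a scavenger receptor, was at 57.8, 63.3, 87.8 and 56.3 in KO and 15, 11.2, 20.8 and 8.89 in anti-Ly6G pools, without overlap (difference 2.25, adjusted p = 5.14e-05). Heme oxygenase, Hmox1, was at 83 ± 6.07 against 34.7 ± 9.25 (difference 1.29, adjusted p = 0.00084), and C1qc differed by 0.63 (adjusted p = 0.00152). The lower member was the iron exporter gene Slc40a1, and with KO pools 3 and 4 alone 0 members were lower. The median of the Kupffer list was 0.38 with KO pools 3 and 4 and -0.11 with KO pools 1 and 2, so its sign followed the mitochondria label of the KO pools taken, as the plot of list medians shows.

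Neutrophil genes were few in the table. Of 22 listed genes 8 were measured, 5 were higher in KO and 0 lower, and the same numbers were called with KO pools 3 and 4 alone. The 5 are also expressed by other myeloid cells, and the defining granule genes (Mpo, Elane, Ltf, Camp and others) are not analysed here. S100a9, a calcium-binding protein of neutrophils and monocytes, was at 6.95, 7.17, 7.03 and 8.04 in KO and 2.53, 1.47, 1.86 and 1.54 in anti-Ly6G pools, and its partner S100a8 was at 3.06, 3.85, 3.08 and 2.44 and 0.885, 0.811, 0.906 and 0.566. Neither gene had overlapping groups (differences 1.75 and 1.48, adjusted p = 0.000145 and 9.78e-05). The lectin receptors Clec4d and Clec4e differed by 2.10 and 2.11 (adjusted p = 0.000404 and 0.00109), and the granulocyte colony-stimulating factor receptor Csf3r differed by 0.91 (adjusted p = 0.00277). Cxcr2, the chemokine receptor that draws neutrophils into tissue, was at 1.43, 1.69, 2.0 and 2.25 in KO and 2.15, 1.88, 2.0 and 1.21 in anti-Ly6G pools, which overlap (difference 0.03, adjusted p = 0.927). Lcn2, an iron-siderophore binding protein that injured hepatocytes also make, had 446, 538, 193 and 197 and 179, 150.1, 488 and 163, high in KO pools 1 and 2 and in anti-Ly6G pool 3 (difference 0.52, adjusted p = 0.385). Hdc, histidine decarboxylase, differed by -0.14 (adjusted p = 0.505). Both groups had lower Hdc than the controls (-0.85 for KO, adjusted p = 0.0193, and -0.72 for anti-Ly6G, adjusted p = 0.00271), in comparisons that share those controls. The summed signal of the 8 genes overlapped at 261 to 601.1 in KO and 196 to 534 in anti-Ly6G pools.

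**Figure D2:**
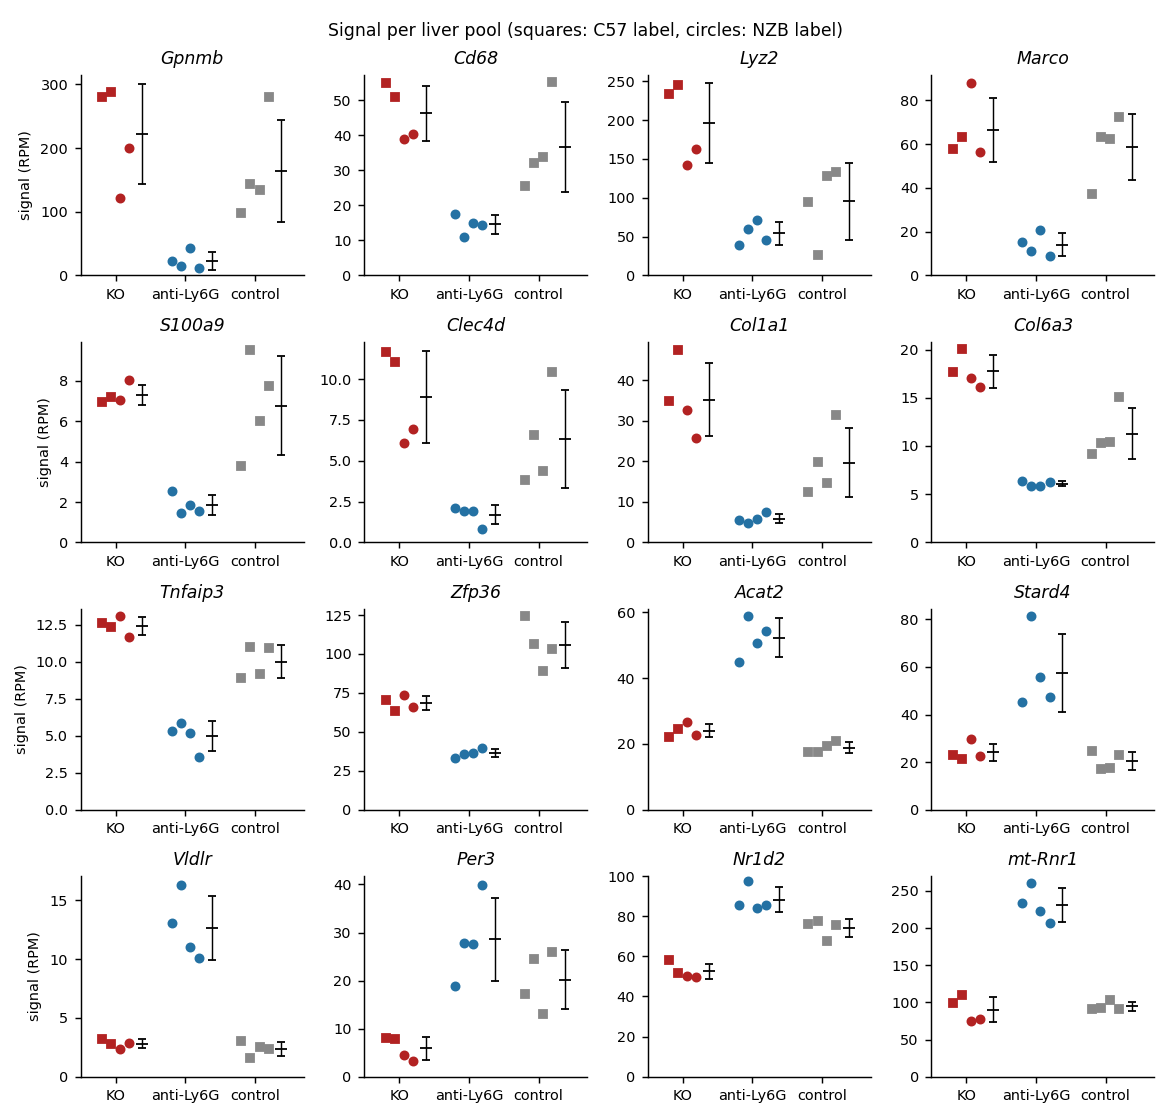
Signal (RPM) in each pool for 16 genes in KO, anti-Ly6G and control livers, with squares for pools of the C57 mitochondria label and circles for the NZB label. Bars to the right of the points are mean ± SD of 4 pools, and axes start at 0. KO and anti-Ly6G points do not overlap in any of the 16 panels. Most of these genes were picked by lowest p or by lack of overlap in the same pools, so this was partly set by the choice. Over all genes, 27.3% had no overlap.

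Genes of antigen presentation to T cells were also higher in KO. Of 9 measured genes of MHC class II and dendritic cells 7 were higher, and Siglech, a receptor of plasmacytoid dendritic cells, was lower. With KO pools 3 and 4 alone 6 were higher and 0 lower. The invariant chain gene Cd74 was at 176, 168, 199 and 155 in KO and 109.9, 83.4, 101 and 77.3 in anti-Ly6G pools (difference 0.91, adjusted p = 0.000194), with no overlap. H2-Aa and H2-Ab1, the 2 chains of the class II molecule I-A, differed by 0.91 and 0.81 (adjusted p = 0.000803 and 0.0011). The list's summed signal was 376 to 492 in KO, 183 to 300.4 in anti-Ly6G and 304 to 378 in control pools. Of 5 measured B cell genes 4 were higher, among them Cd79a (0.86, adjusted p = 0.0102), Cd79b (0.75, adjusted p = 0.0114) and the light chain gene Igkc (0.55, adjusted p = 0.0231), at signals of 0.659 to 7.89 over the 3 genes and the 8 pools. Their count fell to 2 without KO pool 4 or without anti-Ly6G pool 2, and to 1 with KO pools 1 and 2 alone. Of 15 T and NK cell genes only Ccl5 and Il2rb were measured, and both were higher. Ccl5, a chemokine of activated lymphocytes and macrophages, was at 6.33 ± 1.31 against 2.33 ± 0.902 (difference 1.30, adjusted p = 0.00116).

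Of 22 measured genes of MHC class I and antigen processing, 10 were higher, against 13.6% of all genes, and 10 were not called. The other 2 were lower, a smaller share than the 13.1% of all genes. The peptide loading genes Tapbp (79.3 ± 9.14 against 48.4 ± 4.11, difference 0.70, adjusted p = 0.000163) and Tap1 (31.6 ± 4.66 against 18.5 ± 1.56, difference 0.75, adjusted p = 0.00103) were higher in KO, as was the immunoproteasome subunit Psmb9 (difference 0.87, adjusted p = 0.000642). The non-classical genes H2-T24 and H2-T10 were lower in KO. H2-T24 was at 3.27, 2.27, 2.62 and 3.4 in KO and 9.99, 9.17, 8.73 and 7.36 in anti-Ly6G pools (difference -1.46, adjusted p = 4e-05). H2-T10 was at 4.6, 4.22, 3.83 and 3.87 and 13.8, 15.1, 13.7 and 13.9 (difference -1.66, adjusted p = 2.48e-06), but 31.1% of its sequence is unique, so its reads may belong to a close relative. Their differences from control were 0.21 and 0.01 for KO (adjusted p = 0.492 and 0.964), and those of anti-Ly6G were 1.67 and 1.68 (adjusted p = 1.11e-05 and 1.86e-06). Of 29 interferon response genes 6 were higher and 2 lower (4 lower without anti-Ly6G pool 3), with a median of 0.05. The member with the lowest p was Bst2 (tetherin), at 107 ± 6.01 against 78.1 ± 4.55 (difference 0.45, adjusted p = 0.000505).

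Among lists with at least 5 measured members, collagen and matrix genes had the largest share of higher members, at 31 of 36, and 31 were also higher with KO pools 3 and 4 alone. With all pools 0 were lower, while 2 were lower with KO pools 1 and 2 alone and 1 without KO pool 4. Col1a1, the main chain of type I collagen (ENSMUSG00000001506, chromosome 11, 94936224 to 94953042 in GRCm38), was at 35, 47.4, 32.7 and 25.7 in KO and 5.63, 4.76, 5.68 and 7.44 in anti-Ly6G pools. The highest anti-Ly6G pool was far below the lowest KO pool, and the controls, at 12.5, 19.9, 14.7 and 31.4, overlapped with KO and not with anti-Ly6G (difference of KO and anti-Ly6G 2.47, SE 0.25, adjusted p = 2.67e-05). Its partner chain Col1a2 was at 47.3 ± 7.46 against 11.6 ± 1.01 (difference 1.97, adjusted p = 1.5e-05). Col6a3, of the microfibrillar type VI collagen, was at 17.7, 20.1, 17.1 and 16.1 in KO and 6.39, 5.83, 5.87 and 6.3 in anti-Ly6G pools (difference 1.46, adjusted p = 9.34e-06). Col4a1, of the basement membrane, differed by 1.43 (adjusted p = 1.76e-05). Enzymes and regulators of the matrix were chosen here after their values were seen: the collagenase Mmp13 differed by 1.74 (adjusted p = 0.00402), the gelatinase Mmp2 by 1.18 (adjusted p = 0.000354), the inhibitor Timp1 by 1.31 (adjusted p = 0.000675) and the fibrogenic cytokine Tgfb1 by 0.92 (adjusted p = 0.000756). Fn1, Postn, Timp3 and Adamts1 were among the 5 members that were not called. The median of the list was 0.98, and it was 0.34 for KO minus control and -0.72 for anti-Ly6G minus control.

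Stellate cells are the main source of this matrix in injured liver. Of 19 measured markers 7 were higher, 1 (Rgs5) was lower and 11 were not called, and the summed signal overlapped at 699.8 to 923 in KO and 578 to 757 in anti-Ly6G pools. With KO pools 3 and 4 alone 9 were higher and 0 lower. Pdgfrb, the growth factor receptor of stellate cells, was at 16.3, 22.6, 17.4 and 16.4 in KO and 9.61, 7.65, 7.3 and 9.3 in anti-Ly6G pools, without overlap (difference 1.06, adjusted p = 5.45e-05). Vimentin, Vim, which macrophages share, differed by 1.32 (adjusted p = 0.000198), and Tagln, an actin-binding protein with 36.5% unique sequence, differed by 0.95 (adjusted p = 6.8e-05). Lrat, the enzyme that stores retinol in stellate cells, was at 19.5 ± 1.86 against 19.4 ± 2.59 (difference 0.02, adjusted p = 0.942), and the smooth muscle actin gene Acta2, a sign of activated stellate cells, differed by 0.77 (adjusted p = 0.0769). Of 5 measured bile duct genes, Sox9 and Spp1 were higher, and 1 without any 1 of KO pools 1, 3 and 4 and anti-Ly6G pool 3.

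Sinusoidal endothelial markers gave 3 lower members of 20 and 0 higher, a share near the 13.1% of all genes. They were Egfl7 (-0.45, adjusted p = 0.0119), Wnt2 (-0.68, adjusted p = 0.0325) and Clec4g (-0.47, adjusted p = 0.0465). None of the 3 was called in KO pools 3 and 4 alone (adjusted p = 0.123, 0.168 and 0.367). Clec4g was at 19.2, 19.5, 21.9 and 34.5 in KO and 33.4, 37.4, 28.4 and 30.2 in anti-Ly6G pools, so only KO pool 4 reached the anti-Ly6G range. The list's median was -0.47 with KO pools 1 and 2 and 0.13 with KO pools 3 and 4. The number of lower members was 10 without KO pool 4 and 1 without KO pool 2, KO pool 3 or anti-Ly6G pools 1, 2 or 4.

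Immediate early genes, which are transcribed within minutes of a signal, were higher in KO in 16 of 26 cases and lower in 0. Zfp36, which encodes tristetraprolin, an RNA-binding protein that destabilises cytokine mRNAs and is a target of the p38 pathway, was at 70.6, 63.2, 73.6 and 66.2 in KO and 33.3, 36, 36.2 and 39.8 in anti-Ly6G pools. The 2 groups were far apart and the controls were above both, at 124, 107, 89 and 103 (difference of KO and anti-Ly6G 0.90, SE 0.09, adjusted p = 3.85e-05). Zfp36 was lower than in control livers in both groups, by a difference of -0.62 for KO (adjusted p = 0.0139) and of -1.52 for anti-Ly6G (adjusted p = 2.13e-07). Dusp1, the phosphatase that switches off p38 and JNK, was at 16.7, 20.5, 25.2 and 19.5 in KO and 10.7, 11.2, 10.3 and 10.3 in anti-Ly6G pools, and no pools overlapped (difference 0.90, adjusted p = 0.000795). The stress factor Atf3 differed by 1.23 (adjusted p = 0.000288), and Fos, the AP-1 subunit, chosen after its values were seen, was at 4.37 ± 0.613 against 1.71 ± 0.908 (difference 1.21, adjusted p = 0.00205). Jun (0.46, adjusted p = 0.0917) and Egr1 (0.31, adjusted p = 0.32) were not called. The median of the list was 0.46, with 13 members higher in KO pools 3 and 4 alone and 9 in KO pools 1 and 2 alone, and it was -0.14 for KO minus control and -0.65 for anti-Ly6G minus control.

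The NF-kB and chemokine genes gave 18 higher members of 26 and 0 lower, with a median of 0.60. Tnfaip3, the ubiquitin-editing enzyme A20 that limits NF-kB, was at 12.6, 12.3, 13.1 and 11.7 in KO and 5.31, 5.88, 5.2 and 3.56 in anti-Ly6G pools (difference 1.26, adjusted p = 3.64e-05), and the controls were at 8.89, 11, 9.21 and 11. Tnfaip2 was at 37.4 ± 2.06 against 17.6 ± 3.1 (difference 1.08, adjusted p = 5.23e-05), and the receptor Tlr2, which senses bacterial lipoproteins, was at 7.55 ± 1.24 against 3.17 ± 0.47 (difference 1.13, adjusted p = 0.000222). The groups did not overlap for any of these 3. Among chemokines, taken here after their values were seen, Ccl2, which attracts monocytes, differed by 1.32 (adjusted p = 0.000962) and Cxcl2, which attracts neutrophils, by 1.47 (adjusted p = 0.000263), while Cxcl1, a second neutrophil attractant, was not called (0.34, adjusted p = 0.459). The inhibitor Nfkbia, itself an NF-kB target, differed by 0.47 (adjusted p = 0.00104).

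Zfp36, Dusp1 and Tnfaip3 were each higher in KO than in anti-Ly6G pools, the contrast in which they were picked by low p. Their differences of KO from control were -0.62, -0.38 and 0.30. Whether promoter motifs bear on these differences was not tested. The promoters of these 3 genes are shown for the binding motifs of known inducible factors that they carry. Each is the 250 bases before the RefSeq start in GRCm38.p6, read 5′ to 3′ on the gene's strand. Capitals mark a CArG box (the serum response factor motif) in Zfp36, TGACGTCA (the cAMP response element) and CACGTG (the E-box) in Dusp1, and the reverse strand of an NF-kB motif (GGG, any 2 bases, then TTTCC) in Tnfaip3. They lie at chr7:28379229-28379478, chr17:26508473-26508722 and chr10:19015411-19015660, all on the minus strand, and the Tnfaip3 sequence is that of the first of its 2 RefSeq starts. The promoter of the second start held 0 matches to the NF-kB motif. Only the motifs named for each gene are marked, and the Tnfaip3 sequence also holds an unmarked CACGTG.
Zfp36: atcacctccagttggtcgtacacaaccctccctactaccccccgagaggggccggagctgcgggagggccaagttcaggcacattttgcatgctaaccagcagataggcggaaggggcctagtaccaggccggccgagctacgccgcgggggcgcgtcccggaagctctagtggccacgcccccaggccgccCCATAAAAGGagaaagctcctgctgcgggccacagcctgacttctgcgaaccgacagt
Dusp1: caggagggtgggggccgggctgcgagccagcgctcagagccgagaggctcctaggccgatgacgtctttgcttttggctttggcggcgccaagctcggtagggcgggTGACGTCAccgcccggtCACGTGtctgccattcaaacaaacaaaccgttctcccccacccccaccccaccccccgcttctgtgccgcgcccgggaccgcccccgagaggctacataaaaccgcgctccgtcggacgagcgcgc
Tnfaip3: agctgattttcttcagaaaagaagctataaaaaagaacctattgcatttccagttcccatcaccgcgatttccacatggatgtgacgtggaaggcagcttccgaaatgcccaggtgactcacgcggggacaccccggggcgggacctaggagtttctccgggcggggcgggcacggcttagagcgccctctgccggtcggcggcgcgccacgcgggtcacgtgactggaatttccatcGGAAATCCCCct
Both strands were searched over 300 bases, from 250 before to 50 after the start. The NF-kB motif was found in 6 of 20 NF-kB list genes with a promoter in the table (30%) and in 1.89% of all 27025 genes. The cAMP response element was found in 3 of 21 immediate early genes (14.3%, against 2.03% of all), the E-box in 7 of 21 (33.3%, against 8.09%) and the CArG box in 1 of 21 (4.76%, against 1.81%). A match describes the sequence only, and binding was not measured.

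Of 19 members of the interleukin-1 axis 6 were higher, 3 were lower, a share near the 13.1% of all genes, and 10 were not called. The intracellular kinases Irak4 (9.07 ± 1.09 against 5.99 ± 0.449, difference 0.56, adjusted p = 0.00462) and Irak3 (1.13, adjusted p = 0.00812), an inhibitory relative of macrophages, were higher, as was Il18bp, the decoy of interleukin-18 (23.2 ± 2.14 against 15.9 ± 1.62, difference 0.54, adjusted p = 0.00132). The receptor chains Il1r1 (-0.38, adjusted p = 0.0314) and Il1rap (-0.43, adjusted p = 0.021), and the cytokine Il18, were lower. Il1b itself was at 5.41, 4.59, 6.28 and 4.74 in KO and 7.46, 3.29, 3.77 and 0.97 in anti-Ly6G pools, which overlap (difference 0.62, adjusted p = 0.232). The lower calls rested on single pools, with 0 lower members without KO pool 3, KO pool 4 or anti-Ly6G pool 2 and 1 without KO pool 1 or anti-Ly6G pool 4. The higher count was 3 without anti-Ly6G pool 2. Acute phase genes were called near the background, with 4 of 28 higher and 3 lower. Saa3, made by macrophages as well as hepatocytes, was at 38.8, 38.5, 21.5 and 24.1 in KO and 9.48, 12.2, 13.7 and 4.93 in anti-Ly6G pools (difference 1.60, adjusted p = 0.00131), the endotoxin carrier Lbp differed by 0.77 (adjusted p = 0.00204) and Serpina3m, with 57.9% unique sequence, by -0.86 (adjusted p = 0.0022). The higher count was 2 without KO pool 2 or without anti-Ly6G pools 1 or 2.

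Genes of cholesterol synthesis were lower in KO than in anti-Ly6G livers in 16 of 25 cases, and in 12 with KO pools 3 and 4 alone. These genes are switched on together by the transcription factor SREBP2 when the sterol content of the endoplasmic reticulum is low. Acat2, cytosolic acetoacetyl-CoA thiolase, was at 22.1, 24.6, 26.5 and 22.7 in KO and 45, 59, 50.6 and 54.4 in anti-Ly6G pools, and the controls were at 17.4, 17.6, 19.5 and 20.8 (difference of KO and anti-Ly6G -1.10, SE 0.09, adjusted p = 7.25e-06). It has 54.5% unique sequence. Stard4, a sterol carrier protein, was at 22.9, 21.3, 29.5 and 22.5 in KO and 45.1, 81.2, 55.8 and 47.5 in anti-Ly6G pools (difference -1.21, adjusted p = 0.000411), and phosphomevalonate kinase, Pmvk, was at 13 ± 0.884 against 23.1 ± 4.18 (difference -0.78, adjusted p = 0.000644). The groups did not overlap for any of the 3. Enzymes named after their values were seen were squalene epoxidase Sqle, at 7.41, 7.7, 10.7 and 6.6 in KO and 13, 29.6, 26 and 17.6 in anti-Ly6G pools (-1.31, adjusted p = 0.00113), and lanosterol demethylase Cyp51 (-1.19, adjusted p = 0.00169). Anti-Ly6G pool 2 was the highest of its group in Acat2, Stard4, Pmvk, Sqle and Cyp51. The median of the list was -0.60, and it was 0.29 for KO minus control and 0.88 for anti-Ly6G minus control. One of the 17 promoters of this list in the RefSeq table held the sterol element TCACNCCAC (5.88%, against 1.44% of all).

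**Figure D3:**
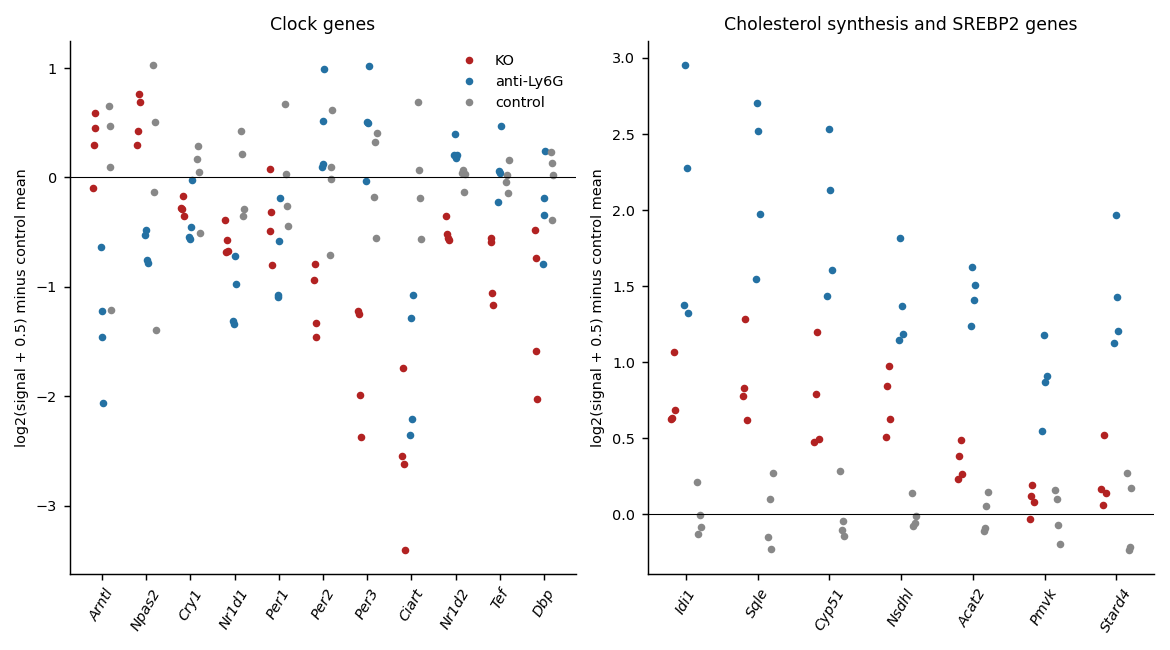
Per-pool log2(signal + 0.5) minus the control mean for clock genes (left) and for genes of cholesterol synthesis and SREBP2 (right), with red for KO, blue for anti-Ly6G and grey for control, 4 pools each. On the right, the anti-Ly6G points of Idi1, Sqle, Cyp51, Nsdhl, Acat2, Pmvk and Stard4 lie above all KO points, and on the left the KO points of Per2, Per3, Nr1d2 and Tef lie below all anti-Ly6G points.

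Fatty acid synthesis showed no common direction, with 2 of 26 genes higher and 6 lower. Stearoyl-CoA desaturase 1, Scd1, which makes monounsaturated fatty acids, was at 329, 362, 258 and 330.3 in KO and 63.9, 37.9, 104 and 27.9 in anti-Ly6G pools, with no overlap (difference 2.61, adjusted p = 0.000795), and Scd2 was also higher (0.74, adjusted p = 0.00161). The controls had 302, 915, 301 and 926 of Scd1, a wider spread than either group. Malic enzyme, Me1, which supplies NADPH, was lower at 64.7, 61.7, 83.8 and 89.5 against 127, 128, 152 and 160.4 (difference -0.93, adjusted p = 0.00024, 60% unique sequence), as were Thrsp, a cofactor of lipogenesis (-1.81, adjusted p = 0.0176), and Mlxipl, Dgat2, Fads2 and Lpin1. Fatty acid synthase, Fasn, was at 29.6 ± 3.23 against 30.3 ± 7.88 (difference 0.00, adjusted p = 0.996). The lower count was 3 without anti-Ly6G pool 2. Elovl7, an elongase, was among the 8 named lower genes with unique sequence and the largest differences, at 1.53, 1.95, 2.83 and 2.15 in KO and 12.4, 11.3, 6.72 and 5.9 in anti-Ly6G pools (difference -1.83, adjusted p = 0.000549).

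Of 32 genes of fatty acid oxidation 1 was higher and 4 were lower, the latter a share near the 13.1% of all genes. Without KO pool 2 or anti-Ly6G pool 3, 2 were higher. The higher one was Ucp2, a mitochondrial carrier that macrophages also express, at 88.2 ± 6.39 against 53.3 ± 9.34 (difference 0.73, adjusted p = 0.00102). Acot4, a peroxisomal thioesterase (-0.58, adjusted p = 0.00706), and Vnn1, a PPARα target that makes cysteamine (-0.37, adjusted p = 0.00721), were lower. Acot4 was not called with KO pools 3 and 4 alone (adjusted p = 0.056), where 5 members of the list were higher and 1 lower. In lipid uptake and storage 4 of 25 genes were higher and 4 lower, with 2 lower without KO pool 1 or anti-Ly6G pool 3. Both shares were near those of all genes (13.6% higher, 13.1% lower). Vldlr, the receptor that takes up very-low-density lipoprotein, was at 3.22, 2.8, 2.33 and 2.87 in KO and 13.1, 16.3, 11.1 and 10.1 in anti-Ly6G pools, and the controls were at 3.03, 1.55, 2.55 and 2.38 (difference of KO and anti-Ly6G -1.98, SE 0.18, adjusted p = 1.14e-05). KO and control pools overlapped, and every anti-Ly6G pool was above both. The fatty acid binding protein Fabp2 was also lower (-0.57, adjusted p = 0.000654), while Lpl was higher, and Plin2, the coat protein of lipid droplets, was at 1619 ± 202 against 1900 ± 134 (difference -0.24, adjusted p = 0.108).

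Apolipoproteins were lower in KO in 6 of 21 cases and higher in 2 (1 without any 1 of KO pools 1, 3 and 4 and anti-Ly6G pools 1 and 2). Apoc3, which slows the clearance of triglyceride-rich lipoproteins, was at 1286, 1264, 1035 and 1105 in KO and 1973, 2049, 1676 and 2233 in anti-Ly6G pools (difference -0.76, adjusted p = 0.000526), and Apof was at 568 ± 34.6 against 769 ± 36 (difference -0.44, adjusted p = 0.00148). Apoa4 had 4045, 3122, 6641 and 6059 in KO and 16985, 14804, 14826 and 12389 in anti-Ly6G pools (difference -1.63, adjusted p = 0.000236), but 34.3% of its sequence is unique. None of the 3 overlapped. In methionine and choline metabolism, the pathway that the diet starves, 5 of 26 genes were lower, against 13.1% of all genes. The lower count was 3 with KO pools 1 and 2 alone. In this list 1 gene (Cth) was higher (3 without anti-Ly6G pool 3 and 2 without anti-Ly6G pool 4), a smaller share than the 13.6% of all genes. Pemt, which makes phosphatidylcholine in the liver without dietary choline, was at 262 ± 10.1 against 328 ± 30.7 (difference -0.32, adjusted p = 0.0067), Mtrr, which keeps methionine synthase active, was at 5.93 ± 0.547 against 9.34 ± 0.79 (difference -0.61, adjusted p = 0.000896) and Dmgdh, of choline breakdown, differed by -0.59 (adjusted p = 0.00715).

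Bile acid genes were called in both directions, with 5 of 20 higher and 3 lower, the lower a share near the 13.1% of all genes. Cyp8b1, the enzyme that sets cholic acid production, was at 828, 742, 834 and 728 in KO and 404, 423, 615 and 429 in anti-Ly6G pools (difference 0.76, adjusted p = 0.00201). The basolateral exporter Abcc3 was at 229 ± 14.6 against 137 ± 17.8 (difference 0.75, adjusted p = 0.000422), and the uptake carrier Slco1a1 was lower, at 22.3, 22.6, 21.5 and 26.4 against 47.7, 81.2, 34.6 and 34.4 (difference -0.99, adjusted p = 0.00366). Cyp7a1, the rate-limiting enzyme of bile acid synthesis, was not called (-0.10, adjusted p = 0.848). The higher count was 3 without KO pool 1, KO pool 4 or anti-Ly6G pool 2.

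Of 38 drug-metabolising genes 8 were lower and 5 higher, the higher a share near the 13.6% of all genes. Cyp2c39 (chromosome 19, 39510862 to 39568529 in GRCm38) was at 6.03, 3.53, 5.24 and 4.93 in KO, 412, 419, 507 and 422 in anti-Ly6G and 8.13, 4.51, 6.53 and 7.8 in control pools (difference of KO and anti-Ly6G -6.36, SE 0.17, adjusted p = 2e-11). It belongs to a cluster of near copies, and 65.5% of its sequence is unique, so the gene to which these reads belong is uncertain. Cyp2b10, the classical target of the receptor CAR, was at 0.868, 0.686, 1.17 and 1.82 in KO and 19.8, 14.3, 6.34 and 14.4 in anti-Ly6G pools (difference -3.06, adjusted p = 2.71e-05, 74.5% unique), and Cyp2a4 differed by -3.76 (adjusted p = 0.000199, 33.6% unique). Nr1i3 (CAR, 30.3% unique) and Nr1i2 (PXR), the receptors that switch such genes on, were also lower. Without anti-Ly6G pool 3 the number of lower genes was 14. Of 26 NRF2 antioxidant genes 11 were higher and 4 lower, with 7 higher without KO pool 1 or KO pool 3. Gstm1, a glutathione transferase with close copies (67.4% unique), was at 1001 ± 139 against 583 ± 104 (difference 0.78, adjusted p = 0.000767), while Nqo1, the classical NRF2 target, was not called (0.30, adjusted p = 0.0659).

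Genes of the mitochondrial respiratory chain were lower in KO where they were called. Of 42 nuclear genes 11 were lower and 0 higher, with a median of -0.20. Ndufa5, of complex I, was at 54.7, 52.7, 50.8 and 51.7 in KO and 76.3, 73.9, 58.9 and 70 in anti-Ly6G pools (difference -0.40, adjusted p = 0.00473), Cox7b, of complex IV, differed by -0.36 (adjusted p = 0.00718) and Ndufb8, of complex I, by -0.37 (adjusted p = 0.00806). Anti-Ly6G pool 3 was the lowest of its group for all 3. The lower count was 23 without anti-Ly6G pool 3 and 7 without any 1 of KO pools 2, 3 and 4 and anti-Ly6G pools 2 and 4, and it was 2 with KO pools 1 and 2 alone and 16 with KO pools 3 and 4 alone. Of 15 genes on the mitochondrial DNA 6 were lower and 0 higher. The ribosomal RNA gene mt-Rnr1 was at 99.6, 109, 74.2 and 77.5 in KO and 234, 260.2, 223 and 206 in anti-Ly6G pools, and the controls were at 90.6, 92.8, 104 and 91.5 (difference of KO and anti-Ly6G -1.36, SE 0.12, adjusted p = 6.82e-06). KO pools 3 and 4, which carry the NZB label of the anti-Ly6G pools, were the 2 lowest of the 12, so the difference was larger between pools of the same label (-1.59) than over all pools. mt-Rnr2 differed by -0.68 (adjusted p = 0.00168) and mt-Atp8 by -0.56 (adjusted p = 0.00178). Whether libraries were made from polyadenylated RNA, which bears on these genes, is not given in the sources used here.

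Several genes of the circadian clock were lower in KO than in anti-Ly6G livers. The clock is a loop in which BMAL1 (gene Arntl) with CLOCK or NPAS2 switches on Per and Cry genes, Nr1d1 and Nr1d2. The products of these genes then shut the loop down. Output factors such as Dbp and Tef are also switched on by BMAL1. Of 20 genes 6 were lower in KO than in anti-Ly6G (Per3, Per2, Usp2, Dbp, Tef and Nr1d2) and 3 were higher (Arntl, Npas2 and Nr1d1), with 9 lower and 2 higher in KO pools 3 and 4 alone. Per3 (chromosome 4, 151003652 to 151044665 in GRCm38) was at 8.07, 7.91, 4.54 and 3.35 in KO, 19, 27.9, 27.7 and 39.9 in anti-Ly6G and 17.1, 24.5, 13.1 and 26 in control pools. Every KO pool was below every other pool, and KO pools 3 and 4 were the lowest (difference of KO and anti-Ly6G -2.20, SE 0.29, adjusted p = 0.000199; KO minus control -1.71, adjusted p = 0.0193; anti-Ly6G minus control 0.50, adjusted p = 0.205). Tef, a D-box binding factor, was at 83.4, 81.1, 58.5 and 54.3 in KO, 105, 128, 126 and 169.8 in anti-Ly6G and 119, 124, 111 and 137 in control pools (difference -0.93, adjusted p = 0.000981). Nr1d2, a repressor of Arntl, was at 58, 51.6, 50.4 and 49.7 in KO and 85.4, 97.6, 84.1 and 85.6 in anti-Ly6G pools (difference -0.74, adjusted p = 2.71e-05). Neither overlapped.

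Arntl, named after its values were seen, was at 10.3, 13.7, 15.3 and 16.8 in KO, 6.95, 4.46, 3.72 and 2.26 in anti-Ly6G and 17.6, 11.8, 15.5 and 4.49 in control pools (difference of KO and anti-Ly6G 1.65, adjusted p = 0.00488). KO and anti-Ly6G did not overlap, and control pool 4 was at the anti-Ly6G level. Npas2 differed by 1.18 (adjusted p = 0.0341), Per2 by -1.56 (adjusted p = 0.000984) and Dbp by -0.94 (adjusted p = 0.0322), where Dbp overlapped. Ciart, a repressor of the loop, was low in both groups, at 3.27, 6.07, 3.08 and 1.58 in KO and 3.79, 8.52, 4.25 and 9.94 in anti-Ly6G against 34.8, 22.4, 18.8 and 14.3 in control pools, and was not called between KO and anti-Ly6G (-0.85, adjusted p = 0.0998). The higher count of the list was 1 without any 1 of KO pools 2 and 4 and anti-Ly6G pools 1, 2 and 4. The labels give no hour of tissue collection, and the order of collection was not tested.

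Per3 and Tef were both lower in KO than in anti-Ly6G pools, and whether promoter motifs bear on this was not tested. Their promoters are shown for the clock motifs that they carry. They are the 250 bases before the RefSeq start in GRCm38.p6, 5′ to 3′, at chr4:151044666-151044915 on the minus strand and chr15:81802423-81802672 on the plus strand, the second being the first of 2 starts of Tef. Capitals mark TTANGTAA (the D-box, bound by DBP and TEF) in Per3 and CACGTG (the E-box, bound by BMAL1 with CLOCK or NPAS2) in Tef.
Per3: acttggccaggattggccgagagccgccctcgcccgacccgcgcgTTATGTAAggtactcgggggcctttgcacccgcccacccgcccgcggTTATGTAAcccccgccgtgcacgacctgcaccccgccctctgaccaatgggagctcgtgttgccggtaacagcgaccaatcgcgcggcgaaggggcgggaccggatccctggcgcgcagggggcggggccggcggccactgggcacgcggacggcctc
Tef: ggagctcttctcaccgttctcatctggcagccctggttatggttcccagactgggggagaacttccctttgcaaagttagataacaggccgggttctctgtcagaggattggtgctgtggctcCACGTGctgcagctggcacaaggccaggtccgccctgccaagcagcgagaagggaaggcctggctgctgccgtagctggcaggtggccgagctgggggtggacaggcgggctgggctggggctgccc
Per3 held 2 copies of the D-box and was the single clock gene of 17 with it (5.88%, against 2.72% of all genes). The E-box was found in 5 of these 17 genes (29.4%, against 8.09% of all). The promoter of the second Tef start, which is not shown, also held an E-box. These are descriptions of sequence, and no binding was measured.

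Liver genes under growth hormone and STAT5 control were lower in 8 of 24 cases and higher in 2 (1 without anti-Ly6G pool 3). Igf1, the main endocrine product of growth hormone, was at 352, 349.8, 328 and 342 in KO and 476, 493, 482 and 442 in anti-Ly6G pools, without overlap (difference -0.46, adjusted p = 0.000331), and Nudt7, a peroxisomal CoA hydrolase, differed by -0.70 (adjusted p = 0.000593). The lower count was 5 without KO pool 3 or KO pool 4. In iron handling 7 of 19 genes were lower and 2 higher, but 2 were lower and 1 higher with KO pools 3 and 4 alone. Hamp2 (-0.93, adjusted p = 0.00893, 60.5% unique) and Hamp (-0.78, adjusted p = 0.0344, 59.6% unique), which encode the iron hormone hepcidin and a near copy, and Id1, a target of bone morphogenetic proteins (-0.53, adjusted p = 0.00553), were lower. The lower count was 4 without KO pools 1 or 4 or without anti-Ly6G pools 3 or 4, and 4 were higher without anti-Ly6G pool 3.

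Lysosomal genes were higher in 16 of 32 cases and lower in 2, with 13 higher in KO pools 3 and 4 alone. The 16 include Atp6v0c (difference 2.23, adjusted p = 2e-11), whose reads may be split with a pseudogene, as described further below. The lower ones numbered 0 without KO pool 3 or 4 and 1 without any 1 of KO pools 1 and 2 and anti-Ly6G pools 1 and 2. The protease Ctsb was at 1046, 1076, 914 and 934 in KO and 606, 585, 648 and 575 in anti-Ly6G pools (difference 0.72, adjusted p = 0.00024), and Ctss and Ctsk, proteases of macrophages, were also among the higher ones. In the same pools the monocyte list summed to the ranges given above, and its part in the lysosomal counts was not tested. Complement and coagulation genes were called in 5 of 35 cases as higher and 4 as lower. These shares were near the 13.6% and 13.1% of all genes. The higher ones included the anaphylatoxin receptors of myeloid cells, C5ar1 (6.95 ± 1.52 against 2.06 ± 0.398, difference 1.53, adjusted p = 0.000331) and C3ar1 (15 ± 3.76 against 5.19 ± 1.43, difference 1.44, adjusted p = 0.00161), and the lower ones included the hepatocyte product C8b (-0.73, adjusted p = 0.00259). With KO pools 3 and 4 alone 12 were lower, without KO pool 2 there were 8 and without anti-Ly6G pool 4 there were 7, and 3 were higher without anti-Ly6G pool 2.

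Of 27 genes of endoplasmic reticulum stress and ATF4, 5 were lower and 3 higher, with the lower ones including Xbp1, a factor of the unfolded protein response (77.5 ± 7.27 against 113 ± 9.11, difference -0.55, adjusted p = 0.000832), and the chaperones Dnajc3 (-0.33, adjusted p = 0.00152) and Dnajb9 (-0.35, adjusted p = 0.00319). Of 22 genes of glucose and insulin 3 were higher (6 with KO pools 3 and 4 alone, and 1 with KO pools 1 and 2 alone or without KO pool 3): G6pc, glucose-6-phosphatase, at 366, 353, 425 and 400.3 in KO and 233, 207, 192 and 227 in anti-Ly6G pools (difference 0.84, adjusted p = 0.00603), Insr (0.30, adjusted p = 0.0171) and Igfbp2 (0.35, adjusted p = 0.0363). Of 17 urea cycle genes Cps1 (0.64, adjusted p = 0.0214) and Got1 (0.60, adjusted p = 0.0181) were higher and Arg1 (-0.33, adjusted p = 0.0485) was lower. Got1 lost its call with KO pools 1 and 2 alone (adjusted p = 0.0779) and with KO pools 3 and 4 alone (adjusted p = 0.0501). Of 23 cell cycle genes Rrm2 was called (0.64, adjusted p = 0.0225), and Mki67, the proliferation marker, was not (0.42, adjusted p = 0.115). The shares of higher members in the stress, glucose and urea cycle lists were near the 13.6% of all genes. That of the cell cycle list was below it. The hepatocyte factor Cebpa was lower (-0.41, adjusted p = 0.0203). Single pools decided several of these: the call of Arg1 was lost without any 1 of 7 pools (all but anti-Ly6G pool 3), that of Igfbp2 without any 1 of KO pools 1, 3 and 4 and anti-Ly6G pools 1, 2 and 3, that of Rrm2 without KO pools 1 or 2 or anti-Ly6G pools 1 or 2, that of Cebpa without KO pools 3 or 4 or anti-Ly6G pools 2 or 4, that of Cps1 without KO pools 3 or 4 or anti-Ly6G pool 2, and that of Insr without KO pool 3. Their adjusted p was then at most 0.136 for Arg1, 0.106 for Igfbp2, 0.0622 for Rrm2, 0.0644 for Cebpa, 0.0699 for Cps1 and 0.0538 for Insr.

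**Figure D4:**
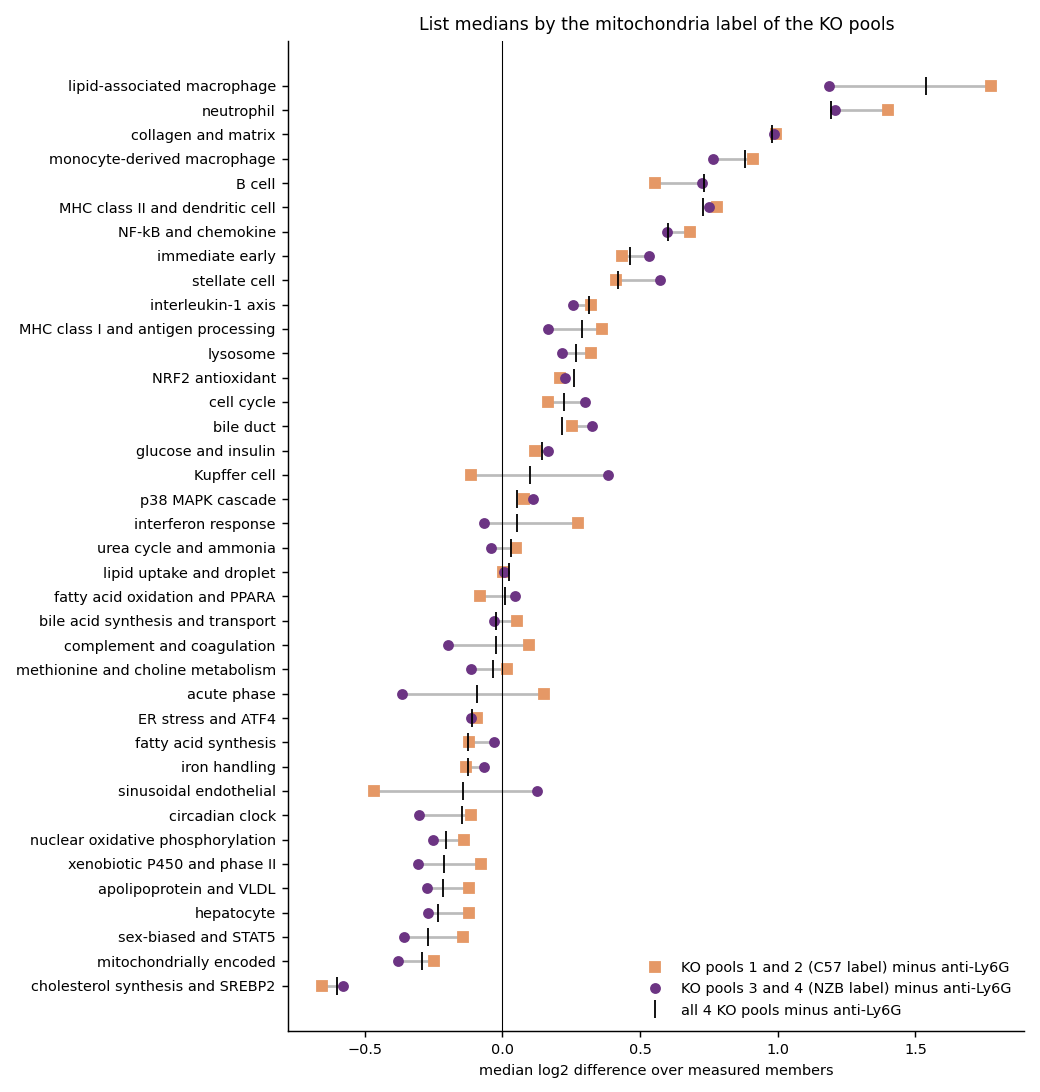
Median log2 difference from anti-Ly6G over the measured members of each list, for KO pools 1 and 2 (C57 mitochondria label, squares), KO pools 3 and 4 (NZB label, circles) and all 4 KO pools (ticks). The matrix list sits at 1.00 and 0.99 in the 2 pairs, while the medians of Kupffer (-0.11 and 0.38) and sinusoidal endothelial genes (-0.47 and 0.13) change sign.

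Beyond the lists, Myom2 had the largest lower difference among the named genes with unique sequence. Myom2, a protein of the muscle sarcomere (ENSMUSG00000031461, chromosome 8, 15057653 to 15133541 in GRCm38), was at 0.306, 0.369, 0.791 and 0.526 in KO, 0.126, 0.251, 0.416 and 0.0661 in control and 16.4, 6.13, 11.2 and 19.8 in anti-Ly6G pools (difference of KO and anti-Ly6G -3.70, SE 0.30, adjusted p = 4.79e-06). No KO or control pool came near the lowest anti-Ly6G pool. Calml4, a calmodulin-like protein (-2.08, adjusted p = 0.00203), Prelid2 (-1.98, adjusted p = 3.43e-05), Fam131c (-1.89, adjusted p = 0.000534) and Cib3 (-1.67, adjusted p = 0.00336) were also lower in KO. For Calml4, Prelid2, Fam131c and Cib3 the difference of KO from control was -0.13, 0.19, 0.34 and 0.53, and that of anti-Ly6G from control was 1.96, 2.18, 2.23 and 2.20. Among the higher genes with unique sequence, Acpp, an acid phosphatase, was at 7.97, 8.07, 4.29 and 4.45 in KO and 1.71, 0.355, 0.238 and 0.323 in anti-Ly6G pools (difference 2.64, adjusted p = 0.000132), with controls at 11.5, 12.7, 7.72 and 8.06.

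Large differences were more often those of genes without unique sequence, mainly among genes lower in KO. At a difference of at least 1 on the log2 scale, 199 of 266 higher and 52 of 128 lower genes had at least 90% unique 25-mers. At a difference of at least 2 these were 13 of 25 higher and 5 of 44 lower genes. Over all 3157 called genes 73.8% had at least 90% unique 25-mers, near the 73.1% of all genes. Among the 394 genes that differed by at least 1 on the log2 scale (266 higher, 128 lower) the share was 64.7%, among the 69 that differed by at least 2 it was 26.5%, and among the 36 that differed by at least 3 it was 5.71%, with 18 pseudogenes. Only Gpnmb and Myom2 of these 36 had unique sequence, and 31 of the 36 were lower in KO. An example, chosen after its values were seen, is Atp6v0c, a subunit of the lysosomal proton pump on chromosome 17, at 182, 192, 181 and 184 in KO and 35.8, 38.4, 41.2 and 40.2 in anti-Ly6G pools, and its pseudogene Atp6v0c-ps2 on chromosome 6, at 0, 0.686, 0 and 0 in KO and 99.1, 101, 128 and 136 in anti-Ly6G pools. In anti-Ly6G pools the gene was lower and the pseudogene, of which 2.9% is unique, was higher than in every KO pool. Differences of such genes (Rps13-ps1, Rpl34-ps1, Cyp2c39, Cyp2a4, H2-T10 and Apoa4 among them) are therefore reported as uncertain in their gene, since how the authors assigned shared reads is not given in the sources used here. Genes with values or points above that also had under 90% unique sequence were Csf3r (71.4%), Tapbp (71.6%), Idi1 (72.2%), Ciart (75.9%), Acot4 (78.7%), Dbp (82.8%), Rrm2 (83.2%), Spp1 (84.6%), Cxcr2 (85.8%), Ctsb (86.1%), Cd79a (86.2%), Dnajb9 (87%), Atp6v0c (87.7%), Nr1d2 and mt-Atp8 (both 88.3%) and Cox7b (89%).

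**Figure D5:**
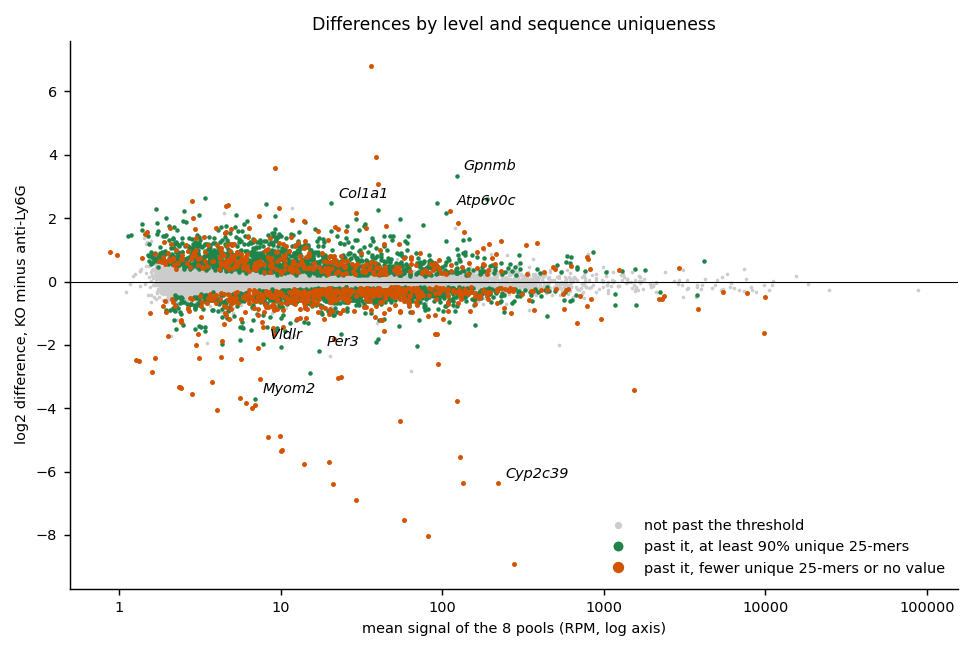
Difference of each gene (KO minus anti-Ly6G, log2 scale) against the mean signal of the 8 pools (RPM, log axis), with grey for genes that were not called, green for called genes with at least 90% unique 25-mers and orange for called genes with fewer or with no value. Below -3 nearly all points are orange, and Myom2 is the green one.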

How the data were processed

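Whole-liver RNA of 12 pools (3 groups of 4, each pool 2 mice) was read on the Genome Analyzer IIx of Illumina, as the labels' protocols state. The authors deposited 1 table of normalised signal for 11791 genes. The submitters' processing notes name the build GRCm38 and, without their roles, Bowtie2 2.0.6, edgeR, RSEM 1.2.3 and cutadapt 1.2.1. How the authors chose the genes in the table is not given in the sources used here. Library totals of the signal were 0.922 to 1.06 M. Low values were whole multiples of 1 step per library, and dividing by it gave whole reads (within 0.01) for 100% of values and depths of 13.1 to 22.3 M. A count of 3 reads, the limit taken for a gene at 0, corresponds to a signal of 0.125 to 0.242, which covers counting error only.

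The signal was tested as log2(signal + 0.5) with limma 3.58.1 in R 4.3.3 (trend, 12 pools in 1 fit, 9 residual degrees of freedom), with Benjamini-Hochberg adjustment over all genes. A filter on a mean of at least 1 in a group removed 0 genes. The script that ran it was tested on simulated data. Recovered reads were tested with edgeR 4.0.16 and DESeq2 1.42.0 as alternatives. Of the gene identifiers, 11672 were found in GENCODE vM21, and the share of 25-base words found in no other gene was computed for 11665, of which 73.1% had at least 90%.

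Named genes were the targeted genes with Lyz2 and Ly6g, the 8 largest differences in each direction with unique sequence, no overlap and a mean of at least 5 in the higher group, the 3 genes of lowest p from every list with at least 3 called (1 in other lists with at least 5 measured), and all measured neutrophil genes. Of these 119 genes, 115 were called. The comparison, the members and the gene lists were chosen with earlier results of these data known. Outside the rule, and chosen after their values were seen, are Acta2, Adgre1, Alb, Arntl, Atp6v0c-ps2, Ccl2, Ccl5, Ccr2, Ciart, Clec4f, Cx3cr1, Cxcl1, Cxcl2, Cyp51, Cyp7a1, Dbp, Egr1, Fasn, Fos, Hamp, Il1b, Il1r1, Il1rap, Jun, Lrat, Mki67, Mmp13, Mmp2, Nfkbia, Npas2, Nqo1, Per2, Plin2, Sqle, Tgfb1, Thrsp, Timd4, Timp1, Vsig4 and genes named without values. Promoters came from RefSeq (GRCm38.p6), which held 89 of the 119 named genes.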

Additional observations from a re-analysis of the deposited data

Results flagged for a closer look

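Among the 238 groups of 4 pools formed by the 119 named genes in KO and anti-Ly6G livers, 13 (5.46%) had 1 pool whose gap to its nearest neighbour exceeded Dixon's 95% critical share of the group's range, and chance gives about 1 in 20. Anti-Ly6G pool 3 was apart for Lcn2 (488 against 150.1 to 179), Cyp8b1 (615 against 404 to 429), Cyp2c39 (507 against 412 to 422) and Ndufb8 (100.7 against 122 to 126). Anti-Ly6G pool 1 was apart for Acpp (1.71 against 0.238 to 0.355), the stellate and macrophage gene Vim (34.7 against 24.7 to 25.7) and Atf3 (4.30 against 5.25 to 5.39). Anti-Ly6G pool 2 was apart for Nr1d2 (97.6 against 84.1 to 85.6) and H2-T10 (15.1 against 13.7 to 13.9), and anti-Ly6G pool 4 for Clec4d (0.808 against 1.93 to 2.09). KO pool 3 was apart for Fam131c (28.2 against 11.6 to 13.4), and KO pool 4 for Tap1 (24.7 against 33.3 to 34.5) and Clec4e (3.64 against 5.62 to 6.01). Of these genes, all but Lcn2 were called with all pools.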

How the results depend on the processing

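The number of genes higher in KO was 1121 to 1746 and the number lower 1079 to 1688 over all settings, and 0 genes were called in the opposite direction in any of them. Leaving out 1 pool gave 1257 to 1636 higher and 1093 to 1630 lower genes. edgeR on recovered reads called 1589 higher and 1580 lower, and DESeq2 called 1746 and 1688. The replicate block gave 1530 higher and 1454 lower. Pool numbers did not pair the pools: deviations of same-numbered KO and anti-Ly6G pools correlated at -0.14, 0.12, 0.17 and -0.21. The mitochondria label as a covariate gave the same numbers as KO pools 3 and 4 alone, 1246 and 1128, and KO pools 1 and 2 alone gave 1121 and 1079. The setting without a filter repeats the main fit, and the label as a covariate repeats KO pools 3 and 4 alone, so neither is a separate check. Over 20 settings, these included, 2364 values of named genes kept direction and side of the threshold in 2276 cases, lost the call in 78 and gained it in 2. The other 8 changed sign, all in genes that were not called: Cxcr2 at -0.15 (KO pools 1 and 2 alone), -0.01 (without KO pool 3), -0.06 (without KO pool 4) and -0.11 (without anti-Ly6G pool 4, the lowest without 1 pool, where the highest was 0.11 without KO pool 1), and Lcn2 at -0.14 and Hdc at 0.0665, both with the label as a covariate and with KO pools 3 and 4 alone. Of 115 called named genes, most of them picked by low p or large difference in these same pools, 94 kept the call in every setting. Of 1560 counts of list members 194 moved by over 1.5 times, and the cause was not tested. The controls share no NZB label, so for the comparison of anti-Ly6G with control the label and the treatment cannot be told apart. With 4 pools a group, the group sizes limit the precision.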

Other observations

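Lepr, the leptin receptor, chosen after its values were seen, was at 44.4, 25.3, 152 and 128 in KO pools 1 to 4, 62.5, 59.8, 145 and 55 in anti-Ly6G pools and 94.3, 92.9, 76.7 and 82 in control pools, high in KO pools 3 and 4 and in anti-Ly6G pool 3. The acute phase gene Saa1, also chosen after its values were seen, was at 122, 156, 55.6 and 70.6 in KO and 110.3, 81.5, 1331 and 45 in anti-Ly6G pools, so that anti-Ly6G pool 3, which stood apart for Lcn2 as well, was the highest of its group. Neither gene was called (adjusted p = 0.883 and 0.517).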
